A study of Mus musculus with 6 samples.

Results

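The 10 genes described here belong to the nuclear factor kappa B (NF-κB) pathway of mouse macrophages. They include the DNA-binding subunits Nfkb1, Nfkb2, Rela and Relb and the inhibitors Nfkbia and Tnfaip3. They also include Nfkbiz, a relative of Nfkbia, and the cytokine genes Tnf, Il1rn and Il10. They were chosen by name, and all 10 were found by their NCBI gene numbers among the 16871 genes in the files. RNA was sequenced from bone marrow-derived macrophages, grown for 7 days from the marrow of C57BL/6 mice aged 8 weeks and exposed to oxLDL, the oxidised form of low-density lipoprotein. The DKO group (3 libraries) lacked acetaldehyde dehydrogenase 2 (ALDH2), a mitochondrial enzyme that clears reactive aldehydes, on top of a knockout that both groups carry. The LKO group (3 libraries), which served as the control, carried that shared knockout alone. Both groups also received oxLDL, so the comparison asks what loss of ALDH2 adds, and untreated cells were not analysed here. Whether the libraries of a group represent different animals is not stated in the labels; the p-values therefore reflect only how far these libraries spread, which may be technical.

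NF-κB factors are dimers of Rel-family proteins that wait in the cytoplasm, bound by inhibitors of the IκB family. Signals from Toll-like receptors, the tumour necrosis factor (TNF) receptor or the interleukin 1 (IL-1) receptor activate a kinase complex, IKK, which marks the inhibitor for destruction and lets the dimer enter the nucleus. Many of the genes it then switches on, among them Nfkbia and Tnfaip3, restrain the same pathway. The step from cytoplasm to nucleus is not measured by RNA sequencing. In macrophages that take up oxLDL in the artery wall, the pathway is known for driving inflammatory cytokines.

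Each library held between 10760625 and 10987584 expected counts, the authors' estimates of the reads per gene. Levels are given in FPKM, the reads of a gene scaled to its transcript length and to the size of the library, which allows genes of different length to be compared. Aldh2 stood at 7.00, 7.06 and 7.34 FPKM in the DKO libraries, against 248.64, 239 and 236 FPKM in the LKO libraries, as the labels require. All 8 macrophage markers looked at were present in every library; Csf1r, Mertk, Fcgr1 and Lyz2 rose and Adgre1 fell, with sums of 10603 to 11798 FPKM in DKO and 9391 to 10118 FPKM in LKO. Neutrophil markers fell in 6 of 9 tested cases, with a summed level of 386 to 427 FPKM in DKO and 577 to 638 FPKM in LKO. Lymphocyte markers fell in 4 of 5, with sums of 80.4 to 87.9 FPKM in DKO and 103 to 116 FPKM in LKO. Stromal markers rose in 4 of 5, with sums of 39.2 to 52.0 FPKM in DKO and 22.6 to 26.1 FPKM in LKO. No marker of these lists was missing from all the files, and the part of these cell types in the results below was not tested.

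In DKO macrophages Nfkbiz and the inhibitor gene Tnfaip3 were slightly lower and the IL-1 receptor antagonist gene Il1rn was higher than in LKO. No Rel subunit gene, nor Nfkbia, Tnf or Il10, passed the test. By edgeR's quasi-likelihood test with Benjamini-Hochberg adjustment over 11809 genes, 3 of the 10 genes passed an adjusted p of 0.05, against 14.3% of all genes tested. Nfkbiz and Tnfaip3 fell and Il1rn rose; genes lower in DKO made up 6.88% and genes higher in DKO 7.42% of all genes tested. The FPKM values of the groups did not overlap for 4 of the 10 genes, against 29.6% of all genes tested. The median size of the change, without regard to sign, was 0.11 on the log2 scale for the 10 genes and 0.11 for all tested genes. Whether the share among the 10 genes differs from that background was not tested. In bulk samples such as these, fewer cells of a type and less RNA per cell cannot be told apart.

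**Figure D1:**
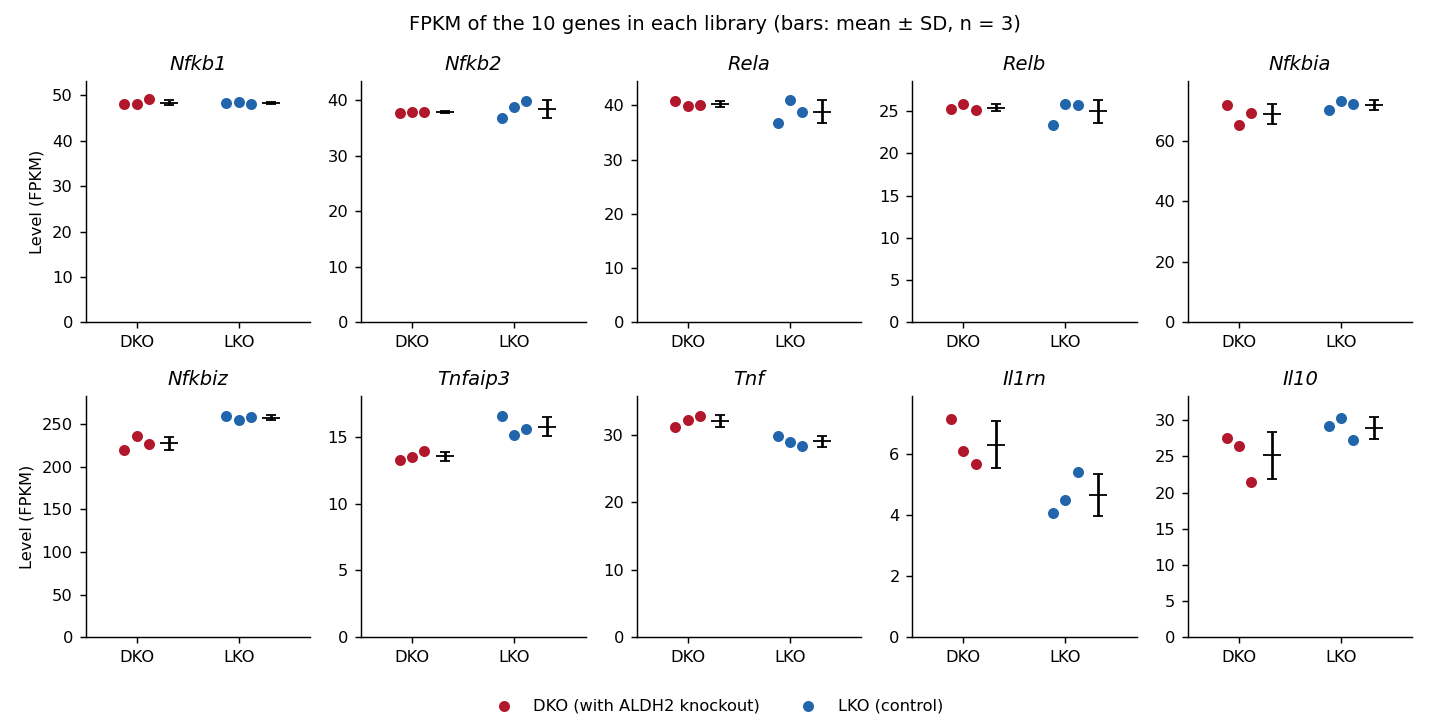
Level in FPKM (vertical axes, starting at 0) of the 10 genes in each DKO and LKO library (points), with the mean and SD of 3 libraries beside them. The DKO points lie below the LKO points for Nfkbiz and Tnfaip3, above them for Tnf and Il1rn, and overlap with them for the other genes.

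The promoters of the genes that changed, and of Nfkbia and Tnf for comparison, are shown because NF-κB dimers act on their own inhibitors through short DNA sites of the type GGGNNTTNCC. The windows run from 250 bases before to 50 bases after a RefSeq transcription start (build GRCm38.p6). They are written 5′ to 3′ on the strand of the gene, and capitals mark matches to this motif on either strand.
Tnfaip3, chr10:19015361-19015660, minus strand: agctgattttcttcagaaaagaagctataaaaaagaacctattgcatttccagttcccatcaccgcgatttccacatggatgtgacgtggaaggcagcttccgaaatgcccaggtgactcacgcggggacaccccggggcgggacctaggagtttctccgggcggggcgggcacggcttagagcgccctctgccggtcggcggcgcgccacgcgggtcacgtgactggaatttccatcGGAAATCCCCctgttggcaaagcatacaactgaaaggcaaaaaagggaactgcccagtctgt
Il1rn, chr2:24345121-24345420, plus strand: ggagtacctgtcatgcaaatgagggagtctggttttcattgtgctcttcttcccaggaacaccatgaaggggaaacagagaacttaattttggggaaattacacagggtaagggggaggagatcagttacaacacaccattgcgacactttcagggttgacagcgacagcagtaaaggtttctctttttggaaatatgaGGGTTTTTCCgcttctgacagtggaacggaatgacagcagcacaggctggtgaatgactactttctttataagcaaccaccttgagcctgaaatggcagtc
Nfkbia, chr12:55492598-55492897, minus strand: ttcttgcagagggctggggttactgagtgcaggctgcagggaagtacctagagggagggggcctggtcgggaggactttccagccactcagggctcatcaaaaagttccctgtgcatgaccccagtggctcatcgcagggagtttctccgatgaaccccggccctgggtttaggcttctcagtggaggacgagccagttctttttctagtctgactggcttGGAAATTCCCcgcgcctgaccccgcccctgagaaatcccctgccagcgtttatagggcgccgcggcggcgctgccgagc
Tnf, chr17:35201958-35202257, minus strand: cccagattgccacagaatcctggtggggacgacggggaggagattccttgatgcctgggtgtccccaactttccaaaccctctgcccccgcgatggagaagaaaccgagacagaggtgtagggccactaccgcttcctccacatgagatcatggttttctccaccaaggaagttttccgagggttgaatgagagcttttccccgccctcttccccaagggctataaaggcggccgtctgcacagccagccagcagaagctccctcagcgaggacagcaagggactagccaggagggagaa
RefSeq windows were found for 6 of the 10 genes, 11 windows in all, and not for Nfkb1, Relb, Nfkbiz and Il10. The motif GGGNNTTNCC, or its reverse complement GGNAANNCCC, was in at least 1 window of 4 of the 6 genes and of 5.48% of all genes. By window, it was in 7 of the 11 and in 4.79% of the 32851 windows of all genes, but windows of nearby starts overlap: the last 2 windows of Nfkb2 share 1 match, and so do the last 2 of Il1rn. It was found 12 bases before the first start of Tnfaip3 (GGAAATCCCC), 29 before the start in Nfkbia (GGAAATTCCC) and 51 before the third start of Il1rn (GGGTTTTTCC). Nfkb2 held it in each of its 3 windows, among them as GGGAATTCCC. The single windows of Tnf and Rela, the second window of Tnfaip3 and the first window of Il1rn did not hold these letters. A looser motif, GGGNNNNNCC, was in all 11 windows and in 50.8% of all windows, and it overlaps every match named here. The motif was chosen after the windows had been read with the looser one. Its share among the windows of the 10 genes therefore cannot be weighed against its share over all genes. Genes with the motif included one that fell (Tnfaip3), one that rose (Il1rn) and others that did not pass (Nfkbia, Nfkb2).

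None of the DNA-binding subunits passed, and each overlapped between the groups. Nfkb1, which encodes the p105 precursor of the p50 subunit, was at 48.0, 48.0 and 49.1 FPKM in DKO, against 48.3, 48.6 and 48.0 FPKM in LKO. All 6 libraries lay between 48.0 and 49.1 FPKM and the groups overlapped (log2 fold change 0.01 ± 0.04 SE, edgeR adjusted p = 0.897). Rela, which encodes p65, the main activating subunit in macrophages, was at 40.8, 39.95 and 39.97 FPKM in DKO, against 36.7, 41.0 and 38.7 FPKM in LKO. The LKO libraries spread more widely than the DKO libraries and enclosed them (log2 fold change 0.06 ± 0.05 SE, edgeR adjusted p = 0.502).

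Nfkb2, which encodes the p100 precursor used in the non-canonical branch of the pathway, was at 37.7, 37.9 and 38.0 FPKM in DKO, against 36.8, 38.7 and 39.9 FPKM in LKO. Relb, the partner of the Nfkb2 product, was at 25.3, 25.9 and 25.1 FPKM in DKO, against 23.4, 25.8 and 25.7 FPKM in LKO. Both overlapped between groups (edgeR adjusted p = 0.886 for Nfkb2 and 0.763 for Relb). The 95% intervals of the 4 subunits together ran from a log2 fold change of −0.12 to 0.17, that is from 0.920-fold to 1.13-fold, so a larger difference than this in any of them would lie outside the interval. The sign of the near-zero values of Nfkb1, Nfkb2 and Relb turned when 1 library was left out (Nfkb1 without DKO replicate 3, Nfkb2 without LKO replicate 3, Relb without LKO replicate 1). The fifth subunit gene of the family, Rel, which is not among the 10 genes, was at 8.19 ± 0.236 FPKM in DKO and 9.03 ± 0.205 FPKM in LKO (SD, n = 3 each). Its groups did not overlap, but it did not pass (log2 fold change −0.13 ± 0.08 SE, edgeR adjusted p = 0.321).

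Nfkbiz and the inhibitor gene Tnfaip3 fell, and the inhibitor gene Nfkbia did not pass. Nfkbia encodes IκBα, the classical inhibitor that holds Rel dimers in the cytoplasm and is made anew after each activation. It was at 71.8, 65.3 and 69.3 FPKM in DKO, against 70.1, 73.2 and 72.3 FPKM in LKO. The groups overlapped (log2 fold change −0.05 ± 0.05 SE, 95% interval −0.16 to 0.06, edgeR adjusted p = 0.597). Nfkbiz encodes IκBζ, a nuclear member of the family that binds p50 and helps to switch on a secondary set of genes such as Il6. It was the most abundant of the 10 genes, at 220, 236 and 227 FPKM in DKO, against 260, 254 and 258 FPKM in LKO. Every DKO library lay below every LKO library. Nfkbiz fell by 0.17 ± 0.04 SE on the log2 scale, to 0.891 of the LKO level (95% interval 0.843 to 0.943, edgeR adjusted p = 0.00495). Under the 14 alternatives its adjusted p lay between 0.000873 and 0.0405, and its log2 fold change between −0.19 and −0.14.

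Tnfaip3 encodes A20, a ubiquitin-editing enzyme that shuts off signalling from the TNF receptor and Toll-like receptors. It was at 13.3, 13.5 and 13.9 FPKM in DKO, against 16.6, 15.1 and 15.6 FPKM in LKO. Every DKO library lay below every LKO library. Tnfaip3 fell by 0.21 ± 0.06 SE on the log2 scale, to 0.866 of the LKO level (95% interval 0.797 to 0.941, edgeR adjusted p = 0.0172). The call was lost without DKO replicate 1 (adjusted p = 0.0706), DKO replicate 2 (0.0621) or LKO replicate 1 (0.0578). It was also lost in DESeq2 (adjusted p = 0.0501) and in unfiltered limma (adjusted p = 0.064), and the log2 fold change stayed between −0.24 and −0.17 in all 14 alternatives.

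Of the cytokine genes, Il1rn alone passed. It encodes the IL-1 receptor antagonist, a secreted protein that occupies the IL-1 receptor without activating it. It was the least abundant of the 10 genes, at 7.17, 6.11 and 5.68 FPKM in DKO, against 4.07, 4.49 and 5.42 FPKM in LKO. The groups did not overlap, but the lowest DKO library and the highest LKO library lay close together. Il1rn rose by 0.46 ± 0.12 SE on the log2 scale, which is 1.37-fold (95% interval 1.15 to 1.63, edgeR adjusted p = 0.0128). Leaving out DKO replicate 1 ended the call (log2 fold change 0.36, adjusted p = 0.1), as did leaving out LKO replicate 1 (log2 fold change 0.36, adjusted p = 0.0611). Limma on log2(FPKM + 1) did not call it either (adjusted p = 0.0591). Il1rn rests on the fewest reads, down to 109 in a library, and it is the 1 gene of the 10 whose expected counts were not whole numbers (within 0.005) in every library.

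Tnf encodes tumour necrosis factor, the archetypal cytokine made under NF-κB control. It was at 31.2, 32.2 and 32.9 FPKM in DKO, against 29.9, 29.0 and 28.3 FPKM in LKO. Every DKO library lay above every LKO library, and the difference was small: a log2 fold change of 0.15 ± 0.06 SE, or 1.11-fold (95% interval 1.02 to 1.21). It did not pass after adjustment over all genes (edgeR adjusted p = 0.0934), nor under any of the 14 alternatives, where the adjusted p was between 0.0805 and 0.302. Il10 encodes interleukin 10, which restrains macrophage activation. It was at 27.6, 26.4 and 21.4 FPKM in DKO, against 29.2, 30.3 and 27.3 FPKM in LKO. The groups overlapped, and DKO replicate 3 was the lowest of the 6 libraries (log2 fold change −0.19 ± 0.08 SE, edgeR adjusted p = 0.139). Without that library the log2 fold change of Il10 was −0.09 (adjusted p = 0.581). For Tnf, Il1rn, Nfkbiz and Tnfaip3, permuting the libraries (exact test on FPKM, two-sided) gave p = 0.1, the smallest possible with 3 against 3.

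**Figure D2:**
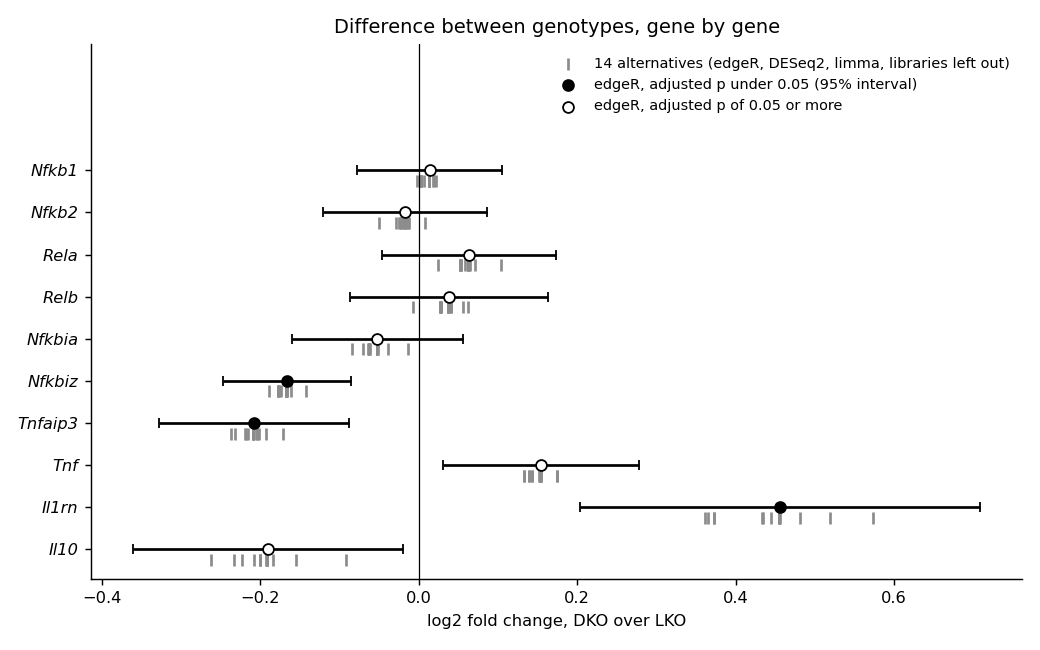
Log2 fold change, DKO over LKO (horizontal axis), of each of the 10 genes, with its 95% interval from edgeR; filled points passed an adjusted p of 0.05, and grey ticks are the values under the 14 alternatives. The Rel subunits and Nfkbia sit around 0, Nfkbiz (−0.17) and Tnfaip3 (−0.21) lie to the left, and Il1rn (0.46) to the right with the widest interval.

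The order of the levels was nearly the same in both groups. In DKO it ran from Nfkbiz (227 FPKM) through Nfkbia (68.8), Nfkb1 (48.4), Rela (40.2), Nfkb2 (37.8), Tnf (32.1), Relb (25.4), Il10 (25.2) and Tnfaip3 (13.6) to Il1rn (6.32 FPKM). Relb and Il10 were the only neighbours in that order whose DKO libraries overlapped. In LKO, Il10 (28.9 FPKM) stood above Relb (24.97), and the overlapping neighbours were Rela with Nfkb2 and Tnf with Il10. Nfkbiz ranked 271st by mean FPKM over the 6 libraries and lay above 98.4% of the 16871 genes, while Il1rn lay above 55.7%. In DKO the spread between libraries was widest for the cytokine genes Il10 (coefficient of variation 13.0%) and Il1rn (12.1%). In LKO it was widest for Il1rn (14.8%), followed by Rela (5.44%), Relb (5.38%) and Il10 (5.28%). It was narrowest for Nfkb2 in DKO (0.381%) and Nfkb1 in LKO (0.570%).

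Ratios of FPKM within a library set opposing genes side by side; they are a description, chosen with the values known, and carry no test. Of 7 ratios computed, 4 did not overlap between groups and are given first. Il1rn over Il1b, the antagonist over a cytokine it opposes, was 1.16, 0.979 and 0.976 in DKO, against 0.495, 0.613 and 0.665 in LKO. Tnf over Tnfaip3 was 2.35, 2.39 and 2.36 in DKO, against 1.80, 1.91 and 1.81 in LKO. In both ratios every DKO library lay above every LKO library. Tnf over Il10 was 1.13, 1.22 and 1.53 in DKO, against 1.02, 0.956 and 1.04 in LKO, and the highest DKO value came from the library with the lowest Il10. Rela over Nfkbia, activator over inhibitor, was 0.569, 0.612 and 0.577 in DKO, against 0.524, 0.559 and 0.536 in LKO. The lowest DKO value of this ratio lay just above the highest LKO value. The other 3 ratios overlapped. Nfkbiz over Nfkbia was 3.06, 3.61 and 3.27 in DKO, against 3.70, 3.47 and 3.57 in LKO. Nfkb2 over Nfkb1 was 0.782 ± 0.00841 in DKO and 0.797 ± 0.0354 in LKO, and Relb over Rela was 0.632 ± 0.0137 in DKO and 0.644 ± 0.0176 in LKO (SD, n = 3 each).

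**Figure D3:**
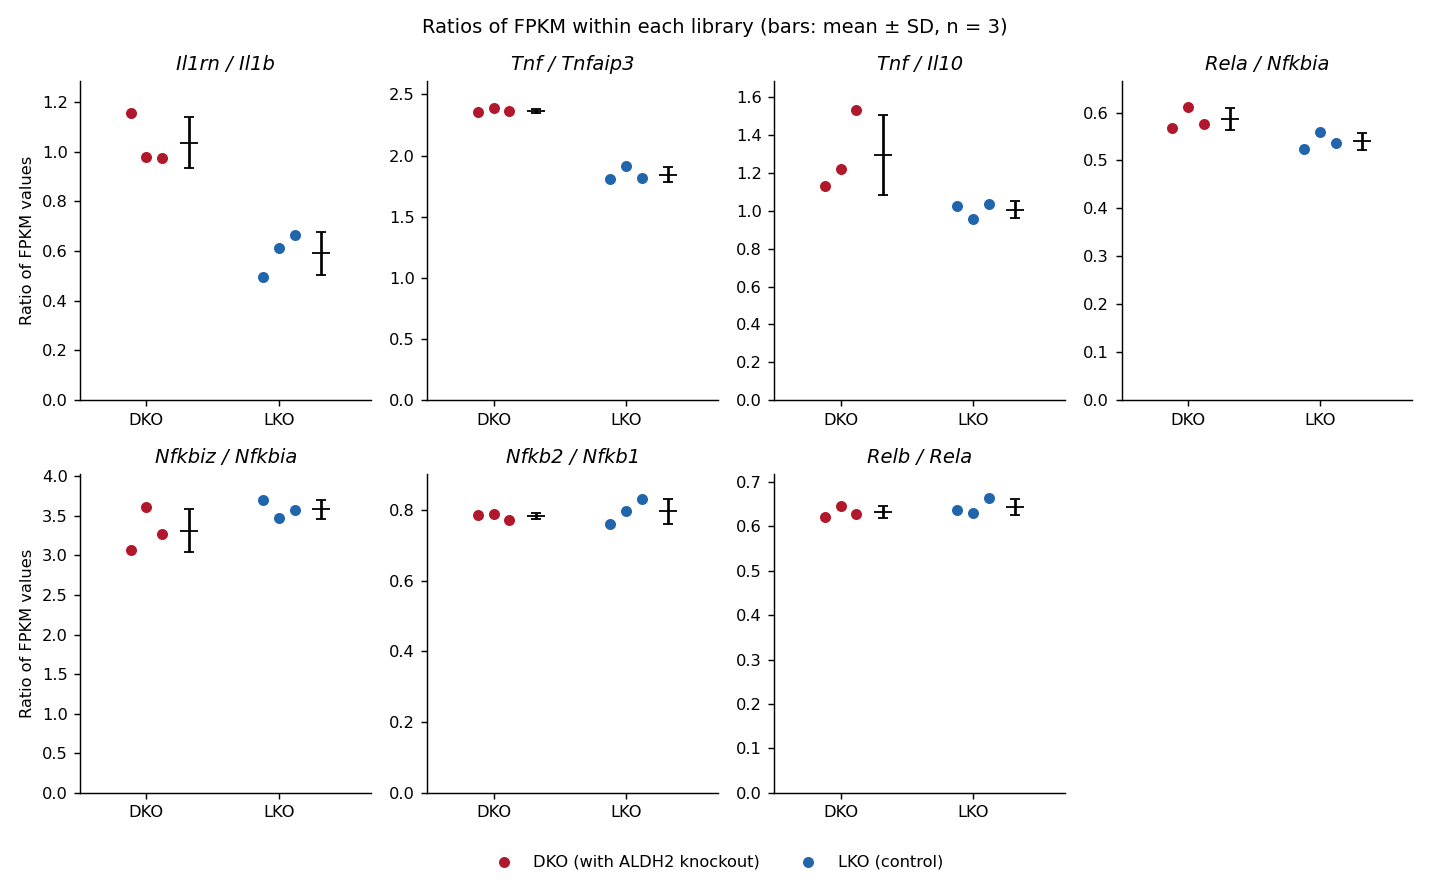
Ratio of FPKM values within each library (vertical axes, starting at 0) for 7 pairs of genes, with the mean and SD of 3 libraries. Il1rn over Il1b (1.04 ± 0.103 in DKO, 0.591 ± 0.0873 in LKO) and Tnf over Tnfaip3 (2.37 ± 0.0166 in DKO, 1.84 ± 0.0593 in LKO) stand furthest apart, and the ratios of the lower row overlap between groups.

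The rest of the pathway was read from lists of genes around the 10. Over all genes tested, 7.42% were higher and 6.88% lower in DKO, and whether any list differs from these shares was not tested. In the IκB family, Nfkbiz was the only 1 of 6 tested genes to pass, in edgeR and in all 14 alternatives. Nfkbie, which encodes IκBε, was at 4.32 ± 0.0503 FPKM in DKO and 3.52 ± 0.272 FPKM in LKO (SD, n = 3 each) without overlap, but did not pass (edgeR adjusted p = 0.136). Of 30 tested genes of the IKK complex and of signalling upstream of it, none rose and 1 fell; their median change was 0.00 (log2), as over all tested genes. The gene that fell was Ikbke, a kinase related to IKK that acts in antiviral signalling, at 119, 120 and 127 FPKM in DKO, against 130, 139 and 143 FPKM in LKO (log2 fold change −0.16 ± 0.05 SE, edgeR adjusted p = 0.0186). Its call was lost without DKO replicate 1 (adjusted p = 0.0807), DKO replicate 2 (0.0886), LKO replicate 2 (0.0792) or LKO replicate 3 (0.0946). The call was also lost in the 3 limma fits (adjusted p = 0.0524, 0.0539 and 0.0981). The adaptor gene Myd88, the kinase subunit genes Chuk and Ikbkb and the kinase gene Tbk1 were among the 29 that did not pass.

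Of 22 tested genes of negative feedback, 3 rose and 2 fell, against 7.42% and 6.88% of all genes tested (median change −0.01, log2). Besides Tnfaip3, Tnip3, an A20-binding inhibitor, fell, at 21.5 ± 1.44 FPKM in DKO and 24.9 ± 1.56 FPKM in LKO (edgeR adjusted p = 0.0278). Nlrc5, a regulator of major histocompatibility class I genes also described as a brake on NF-κB, rose, at 7.99, 7.83 and 8.45 FPKM in DKO, against 5.92, 6.30 and 5.43 FPKM in LKO (log2 fold change 0.47 ± 0.07 SE, edgeR adjusted p = 3.03e-05). N4bp1 rose, at 23.2 ± 0.443 FPKM in DKO and 20.5 ± 0.405 FPKM in LKO (edgeR adjusted p = 0.00766). Otud7b, a deubiquitinase related to A20, rose at a low level, 1.36, 1.69 and 1.45 FPKM in DKO, against 1.06, 1.31 and 1.06 FPKM in LKO (edgeR adjusted p = 0.0406). Nlrc5 passed in all 14 alternatives and N4bp1 in all but 1, without DKO replicate 3 (adjusted p = 0.0539). Tnip3 and Otud7b each lost their call in 9 of the 14. For Tnip3 these included leaving out DKO replicate 1 (adjusted p = 0.16), DKO replicate 2 (0.0855), LKO replicate 1 (0.0956) or LKO replicate 2 (0.0755). For Otud7b they included leaving out DKO replicate 2 (adjusted p = 0.192), DKO replicate 3 (0.0701), LKO replicate 1 (0.121) or LKO replicate 3 (0.135). Without DKO replicate 1, in DESeq2 and in unfiltered limma, neither Tnfaip3 nor Tnip3 passed, and none of the 22 fell. The number that fell differed from 2 in 9 of the 14 alternatives.

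Around Tnf, a receptor gene and a gene of TNF release rose in DKO. Of 9 tested genes, 2 rose and none fell, against 7.42% and 6.88% of all genes tested (median log2 fold change 0.11). Tnfrsf1a, the main TNF receptor gene, rose, at 101, 97.5 and 102 FPKM in DKO, against 85.0, 89.4 and 91.7 FPKM in LKO (log2 fold change 0.19 ± 0.05 SE, edgeR adjusted p = 0.00732). Rhbdf2, which encodes iRhom2, the partner that carries the TNF-releasing protease ADAM17 to the cell surface, rose, at 14.1, 14.7 and 16.6 FPKM in DKO, against 10.7, 12.3 and 11.7 FPKM in LKO (log2 fold change 0.40 ± 0.07 SE, edgeR adjusted p = 0.000417). Without a filter on low values, limma called neither (adjusted p = 0.0524 for Tnfrsf1a and 0.0508 for Rhbdf2). Adam17 itself was at 52.0 ± 1.71 FPKM in DKO and 49.5 ± 1.82 FPKM in LKO and did not pass (edgeR adjusted p = 0.276). Of the 9 genes, 6 had a positive log2 fold change. Among the others, Ltb (33.8 ± 1.99 FPKM in DKO, 38.9 ± 1.52 in LKO) and Tnfsf13b (1.59 ± 0.223 and 2.24 ± 0.125) were lower without overlap. Neither passed (edgeR adjusted p = 0.059 and 0.119). The receptor gene Tnfrsf1b, at 153 ± 2.66 FPKM in DKO and 142 ± 3.26 in LKO, did not pass in edgeR (adjusted p = 0.0512). It passed in only 1 of the 14 alternatives, DESeq2 (adjusted p = 0.0458).

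Around Il1rn, 2 of 6 tested genes rose and none fell, against 7.42% and 6.88% of all genes tested (median log2 fold change 0.21). Il18bp, which encodes a secreted protein that neutralises interleukin 18, rose, at 15.9, 14.1 and 15.1 FPKM in DKO, against 10.3, 11.5 and 11.4 FPKM in LKO (log2 fold change 0.46 ± 0.09 SE, edgeR adjusted p = 0.00121). The genes that rose, Il1rn and Il18bp, thus both encode secreted antagonists. Of the cytokines they oppose, Il1b and Il18 had lower values and Il1a higher ones. Il1b was at 6.20, 6.24 and 5.82 FPKM in DKO, against 8.23, 7.33 and 8.15 FPKM in LKO (log2 fold change −0.36 ± 0.12 SE, edgeR adjusted p = 0.0523). Il18 was at 9.70, 11.5 and 8.88 FPKM in DKO, against 12.8, 12.7 and 13.1 FPKM in LKO (edgeR adjusted p = 0.0747). Neither passed in edgeR, but both passed in limma on log2(FPKM + 1) (adjusted p = 0.0142 for Il1b and 0.0326 for Il18). Il1b also passed in unfiltered limma (adjusted p = 0.0427) and in edgeR scaled by library size alone (0.0457), and Il18 in edgeR without DKO replicate 2 (0.0403). Most alternatives called neither gene. Il1b did not pass in 10 of the 14, with the highest adjusted p in DESeq2 (0.214). Il18 did not pass in 11 of the 14, with the highest adjusted p without DKO replicate 3 (0.279). Il1a, which the antagonist also opposes, was at 0.23, 0.32 and 0.14 FPKM in DKO, against 0.09, 0.05 and 0.05 FPKM in LKO. Every DKO library of Il1a lay above every LKO library, but the gene lay below the count filter and was not tested in the main fit. Il1a, Il1b and Il18 were named after their values were seen. Neutrophils, whose markers fell in the same libraries, also express Il1b and Il1rn; the part of these cells in either value was not tested.

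Around Il10, 1 of 12 tested genes rose and none fell, against 7.42% and 6.88% of all genes tested (median log2 fold change 0.09). It was Il4ra, a chain of the interleukin 4 receptor, at 88.1 ± 1.93 FPKM in DKO and 79.7 ± 3.76 FPKM in LKO (edgeR adjusted p = 0.0195). Its call was lost without DKO replicate 2 (adjusted p = 0.072), DKO replicate 3 (0.0959) or LKO replicate 1 (0.0524). The call was also lost in the 3 limma fits (adjusted p = 0.0813, 0.0846 and 0.118). The receptor gene Il10ra was at 116 ± 1.57 FPKM in DKO and 111 ± 2.14 FPKM in LKO (edgeR adjusted p = 0.293), and the signalling factor gene Stat3 at 51.8 ± 1.33 FPKM in DKO and 52.2 ± 1.12 FPKM in LKO (0.984).

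Of 32 listed genes that NF-κB is known to induce, 30 appeared in the data and 20 passed the count filter. Of these 20, 4 rose and 5 fell, against 7.42% and 6.88% of all genes tested (median change −0.06, log2). The chemokine genes Ccl3 and Ccl4 fell: Ccl3 was at 37.8, 41.8 and 41.0 FPKM in DKO, against 54.5, 58.3 and 56.4 FPKM in LKO (edgeR adjusted p = 2.46e-05). Ccl4 was at 13.9 ± 0.640 FPKM in DKO and 20.9 ± 1.05 FPKM in LKO (edgeR adjusted p = 0.00121). The survival genes Bcl2a1b and Bcl2a1d fell as well (log2 fold change −0.19 and −0.62), although these are near-identical copies whose reads the counting could split. The fifth that fell was Cd83, a maturation marker, at 5.07 ± 1.23 FPKM in DKO and 7.12 ± 0.200 FPKM in LKO (edgeR adjusted p = 0.0191). Without DKO replicate 3, Cd83 did not pass (log2 fold change −0.30, adjusted p = 0.131), nor without LKO replicate 3 (adjusted p = 0.0573). Cd83 did not pass in the 3 limma fits either (adjusted p = 0.0744, 0.0807 and 0.183). Bcl2a1b did not pass without DKO replicate 2 (adjusted p = 0.0912) or LKO replicate 1 (0.0581), nor in unfiltered limma (0.0696).

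The inducible genes that rose were Vcam1, Csf1, Marcksl1 and Ier3. Vcam1, an adhesion molecule, rose, at 2.74, 2.70 and 2.86 FPKM in DKO, against 1.07, 1.27 and 0.980 FPKM in LKO (log2 fold change 1.33 ± 0.15 SE, edgeR adjusted p = 1.57e-06). Csf1, the macrophage growth factor gene, rose, at 4.52 ± 0.697 FPKM in DKO and 2.53 ± 0.517 FPKM in LKO (edgeR adjusted p = 0.000157). Csf1 did not pass in unfiltered limma (adjusted p = 0.064). Stromal cells also express Vcam1 and Csf1, and stromal markers rose in the same libraries (sums of 39.2 to 52.0 FPKM in DKO and 22.6 to 26.1 FPKM in LKO); their part was not tested. Marcksl1, a membrane protein gene, rose, at 131 ± 8.27 FPKM in DKO and 86.3 ± 6.39 FPKM in LKO (edgeR adjusted p = 1.02e-07). Ier3, an early response gene, was called higher (edgeR adjusted p = 0.0473) but lost the call in 9 of 14 alternatives, 5 of them libraries left out: DKO replicate 1 (adjusted p = 0.1), DKO replicate 2 (0.182), DKO replicate 3 (0.0648), LKO replicate 1 (0.0917) and LKO replicate 3 (0.165). The strongly inflammatory targets Il6, Il12b, Nos2 and Ptgs2 were at 0.22 FPKM or less in every library of both groups. They lay below the count filter and were not tested in the main fit.

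**Figure D4:**
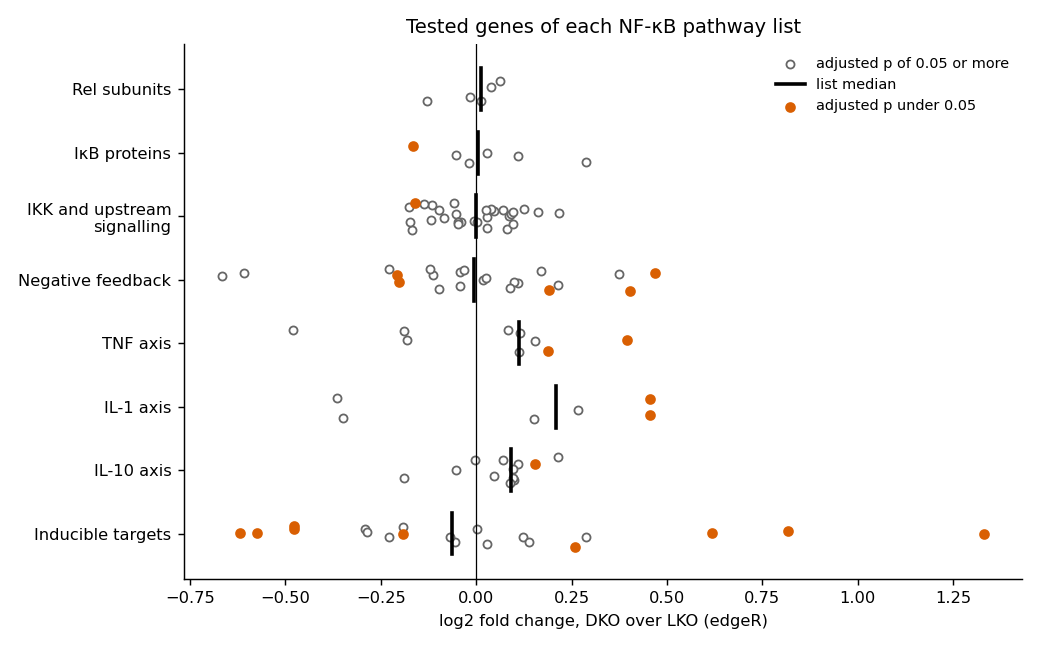
Log2 fold change, DKO over LKO (horizontal axis), of each tested gene of the 8 pathway lists (rows; Bcl3, Socs3 and Nfkbie stand in 2 rows each), with filled points for an adjusted p under 0.05 and a bar at the list median. Rel subunits lie between −0.13 and 0.06 and IKK and upstream genes between −0.18 and 0.22, while the inducible targets spread from −0.62 to 1.33.

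The pathway genes whose pattern over the 6 libraries was most like that of a changed gene were found by the root mean square difference of log2 CPM (counts scaled to the library size), centred on each gene's own mean, among 106 genes. For Nfkbiz they were Tnip1 (0.0421) and Tnfaip3 (0.0479). For Tnfaip3 they were Bcl2a1b (0.0276) and Nfkbiz (0.0479). For Il1rn they were Socs1 (0.115) and Il18bp (0.116). The centring kept the difference between groups, by which Nfkbiz, Tnfaip3 and Il1rn were picked. A similar group difference is therefore part of each match. Tnip1, which encodes an A20-binding protein, was at 98.4, 100.4 and 100.4 FPKM in DKO, against 106, 109 and 110 FPKM in LKO, and did not pass (edgeR adjusted p = 0.0848). It passed in only 1 of the 14 alternatives, without LKO replicate 1 (adjusted p = 0.0342).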

How the data were processed

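The members, lists and tests were chosen with earlier results of these data known. For every gene the authors deposited, per the file headers, its expected count, its FPKM and its length. Expected counts are estimated reads per gene, not scaled to depth; FPKM values were scaled by the authors to transcript length and library size. The submitters' processing notes name Bowtie 0.12.2 and mm8; the counting tool and strand setting, not given in the sources used here, decide whether overlapping genes share reads. Genes not listed for a library were set to 0. Of 16871 gene numbers, 16832 matched a symbol in RefSeq tables of GRCm38.p6, used for names and promoter sequence.

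Libraries held 10760625 to 10987584 expected counts, and a member had 109 to 10341 in a library. Replicates differed beyond sampling noise (chi-square per degree of freedom 1.68 to 3.71 within groups), so each library was 1 sample. Rounded expected counts were tested in R 4.3.3 with edgeR 4.0.16 (filterByExpr, TMM, quasi-likelihood, no block) and Benjamini-Hochberg adjustment over 11809 genes. The procedure was also run on simulated data, but no result of that run is given here. All 10 members passed the count filter. The alternatives comprised DESeq2 1.42.0; edgeR using the size factors of DESeq2, unfiltered, or blocked by replicate; limma 3.58.1 on log2(FPKM + 1), keeping genes that reached 1 FPKM in 3 or more libraries, also with 0.1 added or unfiltered; and the omission of each library in turn. Scaling by library size alone was added after seeing the data. Fold changes from limma understate changes of low genes because of the added constant.

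Named were the 10 members, up to 4 passing genes of smallest p per list, all genes of a direction where 5 or fewer passed, and the 2 genes nearest in pattern to each member that passed; Aldh2 was the check of the deleted gene, and the gene of the shared knockout is not reported here. Rel, Nfkbie, Il1b, Il18, Il1a, Il10ra, Stat3, Adam17, Myd88, Chuk, Ikbkb and Tbk1 were named after their values were seen. So were Ltb, Tnfsf13b, Tnfrsf1b and the targets below the count filter.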

Additional observations from a re-analysis of the deposited data

How the results depend on the processing

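Of the 10 genes, Rela, Nfkbia, Nfkbiz, Tnf and Il10 kept their direction and their side of the threshold in all 14 alternatives. With a library left out, log2 fold changes ran from −0.0019 (without DKO replicate 3) to 0.0221 for Nfkb1, from −0.0497 to 0.0077 (without LKO replicate 3) for Nfkb2 and from −0.0073 (without LKO replicate 1) to 0.062 for Relb, so each changed sign once. Tnfaip3 and Il1rn kept their direction but each lost its call in 5 of 14. The number of the 10 genes that rose, 1, was 0 in the 3 limma fits and 0 to 1 with a library left out. The number that fell, 2, was 1 in DESeq2, 1 in limma without a filter and 1 to 2 with a library left out; the causes were not tested.

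Among the lists, the replicate block gave 1 higher gene of IKK and upstream signalling in place of 0, and 1 lower gene of negative feedback in place of 2. DESeq2 gave 0 lower negative feedback genes. Limma on log2(FPKM + 1), with either pseudocount, gave 0 lower IKK and upstream genes, 1 lower negative feedback gene, 1 higher and 2 lower IL-1 genes and 0 higher IL-10 genes. Limma without a filter gave 0 lower IKK and upstream genes, 0 lower negative feedback genes, 0 higher TNF genes, 1 higher and 1 lower IL-1 gene, 0 higher IL-10 genes, and 2 higher and 3 lower inducible targets; over all genes it called 425 higher and 382 lower, against 876 and 813 in edgeR. Scaling by library size alone, chosen after seeing the data, gave 1 lower TNF gene and 1 lower IL-1 gene. With a library left out, IKK and upstream genes were 0 to 1 higher and 0 to 2 lower, negative feedback genes 1 to 3 higher and 0 to 2 lower, IL-1 genes 1 to 2 higher and 0 to 1 lower, IL-10 genes 0 to 2 higher, and inducible targets 3 to 4 higher and 4 to 6 lower. The scalings moved the median of all genes by at most 0.01 (log2).

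Libraries of the same number did not deviate together (correlations 0.02, −0.06 and −0.03), and 2 of 6 correlated best with their own number. With the replicate block, 810 genes were higher and 743 lower in DKO, and no call among the 10 genes changed. Il1a, Il6 and other targets below the count filter were not tested in the main fit, and their results in the unfiltered fits are not given here. Both groups had 3 libraries, so the exact test could not go below p = 0.1.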
